A study of Mus musculus with 9 samples.

Results

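Chondroitin sulfate and heparan sulfate synthesis was examined through 41 genes of the linker, chain synthesis, sulfation and sulfate supply steps, taken by gene symbol from a list that follows known function and was drawn up with earlier results of these data known. All 41 were found among the 43472 genes of the deposited raw count table, and 40 of them were among the 14257 genes with enough reads to be tested; Chst7 was not. The 9 libraries came from C57BL/6J mice, with 3 of Bone (bone tissue, labelled osteoblasts), 3 of MatC (mature cartilage, labelled mature chondrocytes) and 3 of ImC (immature cartilage, labelled immature chondrocytes). No other allele, treatment or agent is named for any group, and the labels give no skeletal element, stage, age or sex. Per the labels' protocols, the RNA, from very small inputs, was cleared of DNA with DNase, put through 1 round of amplification and made into libraries with a kit that does not mark strand. Replicates are not stated to come from separate animals, so p-values measure only the spread between these libraries, which may be technical.

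Chondroitin sulfate and heparan sulfate are long sugar chains carried by proteoglycans. Both begin with the same short linker of xylose, galactose and glucuronic acid on a serine of the core protein, after which the first added hexosamine commits the chain to chondroitin or to heparan, and sulfotransferases then decorate it in the Golgi. Every sulfate group comes from the activated donor PAPS, and the uronic acids come from UDP-glucuronic acid. Cartilage matrix is rich in chondroitin sulfate on aggrecan, which holds water under load, whereas heparan sulfate on syndecans, glypicans and perlecan binds growth factors such as hedgehog, FGF and BMP ligands. Loss of the sulfate supply or of linker and chain enzymes causes chondrodysplasias in mice and humans, and loss of the heparan polymerases causes cartilage-capped bony outgrowths in humans.

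Total reads ran from 7913684 in Bone 2 to 23159547 in MatC 2. Mitochondrially encoded genes took 7.24% to 8.91% of reads in Bone, 33.7% to 82.3% in MatC and 32.0% to 55.0% in ImC. MatC 3 stood apart, with 82.3% mitochondrial reads and 14940 genes with a read, against 17535 to 19584 in the other libraries. The labels were set beside marker genes, with levels in CPM, read counts per library scaled with TMM factors. The summed level of 10 osteoblast markers was 80174 to 95588 CPM in Bone, 1246 to 26640 CPM in MatC and 523 to 582 CPM in ImC. That of 10 chondrocyte markers was 798 to 1356 CPM in Bone, 10558 to 25752 CPM in MatC and 15976 to 21757 CPM in ImC, and that of 5 hypertrophic chondrocyte markers was 1062 to 1081 CPM in Bone, 2765 to 12565 CPM in MatC and 142 to 607 CPM in ImC. All 10 osteoblast markers were higher and all 10 chondrocyte markers lower in Bone than in ImC, and all 5 hypertrophic markers were higher in MatC than in ImC. Of these 5, 3 were higher in Bone than in ImC. Their sum in Bone came mostly from Pth1r, at 295 to 366 CPM, and Mef2c, at 653 to 744 CPM. Col10a1 was at 0.845 to 2.48 CPM in Bone and Ihh at 1.79 to 3.66 CPM. Bglap, an osteoblast marker, was near 0 in Bone, at 0.676 to 3.14 CPM, and Tnmd, Dpt, Cldn5, Calcr, Dcstamp, Emr1, C1qa, C1qb, Hbb-bh1 and Ckm were among the markers that had no read in ImC. In bulk tissue, fewer cells of a type and less RNA per cell cannot be told apart.

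Every member of the supply, linker and heparan steps that was called between Bone and a cartilage was lower in Bone, whereas chondroitin sulfotransferase genes were called in both directions. Between Bone and ImC, 15 of the 40 tested members were lower in Bone (37.5%, against 16.8% of all tested genes) and 3 were higher (7.5%, against 14.3%), by edgeR's quasi-likelihood test at an adjusted p under 0.05. Between Bone and MatC, 8 members were lower in Bone (20%, against 4.69% of all tested genes) and 1 was higher (2.5%, against 1.36%). Between MatC and ImC, 2 members were higher in MatC (5%, against 5.41% of all tested genes) and 2 were lower (5%, against 2.29%). The median log2 fold change of the tested members was -0.58 for Bone against ImC, -0.56 for Bone against MatC and -0.28 for MatC against ImC, beside -0.02, -0.03 and 0.03 for all tested genes. The comparisons share groups, and Bone against ImC is the sum of the other 2 on the log2 scale, so they are not independent. Throughout, a member is called by this edgeR test unless another tool is named, and log2 fold changes are given ± SE and group means ± SD (n = 3 libraries).

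Of the 31 calls of a member in a comparison, all 31 kept their direction in each of the other settings that gave a value (18, or 17 for Chst13 between MatC and ImC), and 10 kept the call in every one. These 10 were all between Bone and ImC, for Xylt1, Csgalnact1, Chst13, Chst15, Ust, Extl1, Sulf2, Slc26a2, Papss2 and Slc35d1. Scaling by library size alone, which moved the median log2 fold change of all tested genes to 0.46 for Bone against ImC, 0.95 for Bone against MatC and -0.51 for MatC against ImC, left 3 members higher but 8 lower in Bone than in ImC and, of the 9 calls between Bone and MatC, only that of Extl1. All 4 calls between MatC and ImC were lost under it, and Extl1 passed instead, lower in MatC (adjusted p = 0.0419). The members lower in Bone than in ImC numbered 8 without Bone 1, 10 without Bone 2 and 9 without Bone 3, and those lower in Bone than in MatC numbered 3 without Bone 2 and 5 without Bone 3. Without MatC 3 and ImC 3, the libraries of each cartilage with the fewest genes detected, a setting chosen after seeing the data, 3 members were higher but 19 lower in Bone than in ImC, 3 higher but 11 lower in Bone than in MatC, and 2 higher but 4 lower in MatC than in ImC.

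In all, 19 members were called in at least 1 comparison and 21 of the tested members in none. Slc26a2 was lower in Bone than in MatC, and lower in MatC than in ImC. Another 6 members, Xylt1, Fam20b, Csgalnact1, Extl1, Papss2 and Slc35d1, were lower in Bone than in both cartilages, and Ust was higher in Bone than in both. Of the remaining called members, 7 (Xylt2, Chst3, Chst11, Ext1, Extl3, Glce and Ugdh) were called against ImC alone, lower in Bone, Sulf2 was lower in both Bone and MatC than in ImC, Chst13 and Chst15 were higher in both Bone and MatC than in ImC, and Chst12 was called between Bone and MatC alone. A call in 1 comparison and not in another does not show that the 2 comparisons differ. Of the 40 tested members, the groups did not overlap for 17 with every Bone library below every ImC library (28.8% of all tested genes did the same) and for 8 with Bone above (30.1%). For Bone against MatC these counts were 14 (17.7%) and 4 (17.9%), and for MatC against ImC 5 (12.5%) and 2 (11.4%). Of the tested members, 30 were above the cutoff of the filter on low counts in all 9 libraries and 10 were under it in at least 1; Chst13 and Hs6st1 cleared it in all 3 libraries of Bone only, and Chst3 in all 3 of ImC only.

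**Figure D1:**
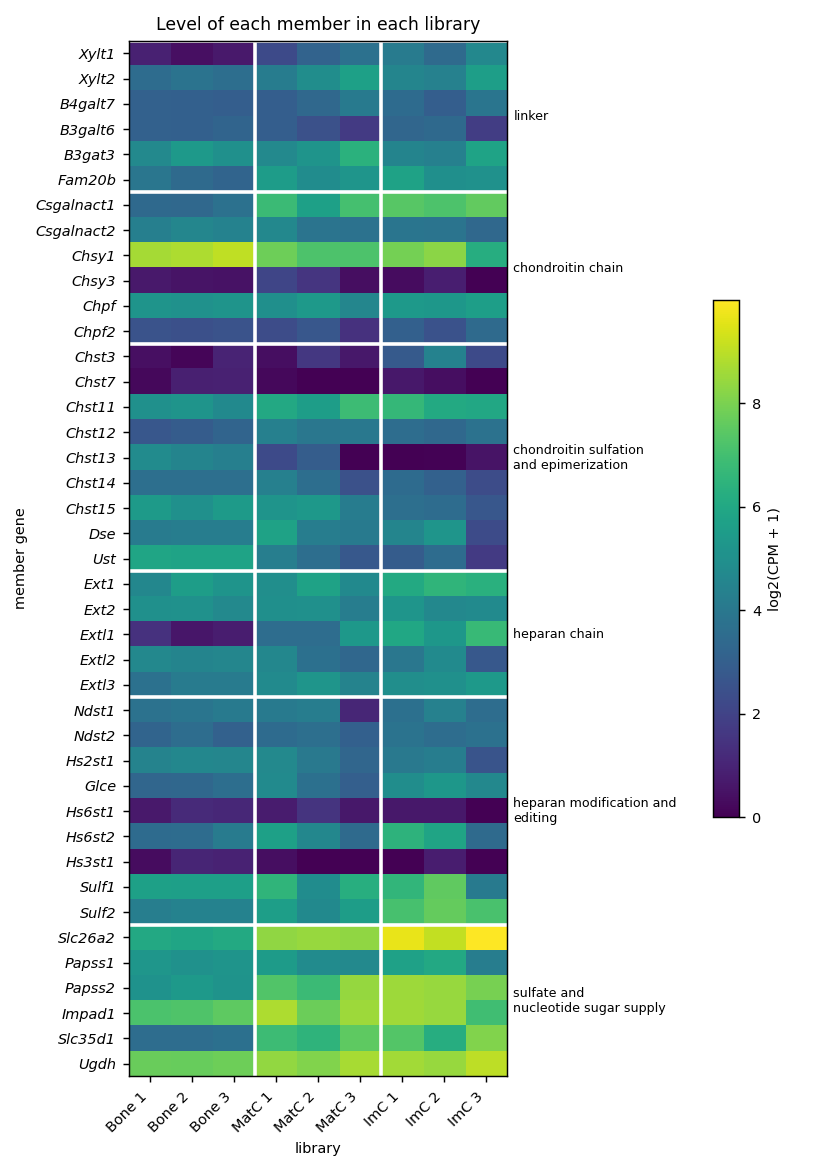
Level of each of the 41 members in each of the 9 libraries, as log2(CPM + 1), with rows in the order of the synthesis steps and columns for Bone, MatC and ImC libraries 1 to 3. The supply genes Slc26a2, Papss2 and Slc35d1 are darker in the 3 Bone libraries than in the 6 cartilage libraries, and Chst13 and Ust are brighter in Bone.

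Of the 6 steps, the supply of sulfate and sugar donors had the highest share of members lower in Bone than in ImC, at 66.7%, against 16.8% of all tested genes. Of its 6 members, 4 were lower in Bone than in ImC and 3 were lower in Bone than in MatC (50%, against 4.69%). The median log2 fold change of the 6 was -2.08 for Bone against ImC and -1.75 for Bone against MatC. Slc26a2 encodes the sulfate transporter of the cell surface, whose loss causes diastrophic dysplasia in humans. It stood at 64.97, 57.9 and 66.4 CPM in Bone, 324, 346 and 327 CPM in MatC, and 803, 537 and 1023 CPM in ImC. The 3 groups did not overlap, with Bone lowest and ImC highest. It was 12.5-fold lower in Bone than in ImC (log2 fold change -3.64 ± 0.32, adjusted p = 0.000127) and 5.27-fold lower than in MatC (log2 fold change -2.40 ± 0.31, adjusted p = 0.00211). MatC in turn was 2.37-fold lower than ImC (log2 fold change -1.24 ± 0.29, adjusted p = 0.0332), a call that was lost, at adjusted p = 0.0552 to 0.0927, without ImC 1, without any single MatC library or without any single Bone library.

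Papss2 (chr19:32595790-32667187, plus strand, GENCODE M21 on GRCm38) encodes the PAPS synthase whose mutation gives the brachymorphic mouse its short limbs. Its levels were 32.9, 40.6 and 34.6 CPM in Bone, 157, 113 and 340.0 CPM in MatC, and 375, 353 and 249 CPM in ImC. Every Bone library was below every cartilage library, while MatC and ImC overlapped. Papss2 was 9.04-fold lower in Bone than in ImC (log2 fold change -3.18 ± 0.43, adjusted p = 0.000885) and 5.63-fold lower than in MatC (log2 fold change -2.49 ± 0.42, adjusted p = 0.00895). Without MatC 3 the log2 fold change against MatC was -1.88, and without Bone 1, 2 or 3 the call against MatC was lost (adjusted p = 0.0542 to 0.0617). Papss1, the other PAPS synthase, averaged 34.8 ± 2.75 CPM in Bone, 32.2 ± 10.2 CPM in MatC and 44.7 ± 24.3 CPM in ImC and passed the test in no comparison. The reads of Papss2 per read of Papss1 were 0.876 to 1.27 in Bone libraries, 3.58 to 13.5 in MatC and 5.45 to 14.1 in ImC, so every Bone library was below every cartilage library in this ratio. Papss2 was already called lower in Bone and the ratio uses the same counts, so it describes the call and adds no support. The same holds for the ratios of other paralogs below.

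Slc35d1 (chr4:103170649-103215164, minus strand) encodes the endoplasmic reticulum transporter that brings UDP-glucuronic acid and UDP-N-acetylgalactosamine to the chondroitin enzymes. It was measured at 10.8, 10.9 and 11.99 CPM in Bone, 114, 90.6 and 180.5 CPM in MatC, and 159.9, 74.9 and 272 CPM in ImC. All cartilage libraries exceeded all Bone libraries, and the 2 cartilages overlapped. The difference was 15.05-fold for Bone below ImC (log2 fold change -3.91 ± 0.49, adjusted p = 0.000616) and 11.4-fold for Bone below MatC (log2 fold change -3.51 ± 0.48, adjusted p = 0.00294). Ugdh (chr5:65413221-65435949, minus strand), the dehydrogenase that makes UDP-glucuronic acid, gave 210.4, 202 and 224 CPM in Bone, 335, 277 and 411 CPM in MatC, and 396, 355 and 516 CPM in ImC. Bone was below both cartilages in every library, by 1.99-fold against ImC (log2 fold change -0.99 ± 0.28, adjusted p = 0.0217), while the difference from MatC did not pass the test. The call for Ugdh was lost without ImC 1 or any single Bone library (adjusted p = 0.061 to 0.0933). Impad1, the Golgi phosphatase that clears the by-product of sulfation, averaged 158 ± 20.7 CPM in Bone, 339.6 ± 115 CPM in MatC and 283 ± 141 CPM in ImC and was not called.

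Promoter sequence was available from RefSeq for 32 of the 41 members, with 40 start sites on GRCm38.p6, each as 250 bases before to 50 bases after the start. There was no entry for Xylt1, Chsy3, Csgalnact1, Ext1, Extl3, Ndst1, Sulf1, Slc26a2 and Impad1. The promoters of Papss2 and Slc35d1 are shown as examples of members lower in Bone than in either cartilage, and Papss2 has 2 start sites of different composition. Fam20b and Extl1, lower in the same comparisons, also had an entry and are not shown. Capitals mark matches, on either strand and so also to the reverse complement, to the SOX core ACAAT, to the RUNX core ACCACA or to the GC box GGGCGG, none of which overlapped another in these sequences.
Papss2, first start (chr19:32595465-32595764, plus strand): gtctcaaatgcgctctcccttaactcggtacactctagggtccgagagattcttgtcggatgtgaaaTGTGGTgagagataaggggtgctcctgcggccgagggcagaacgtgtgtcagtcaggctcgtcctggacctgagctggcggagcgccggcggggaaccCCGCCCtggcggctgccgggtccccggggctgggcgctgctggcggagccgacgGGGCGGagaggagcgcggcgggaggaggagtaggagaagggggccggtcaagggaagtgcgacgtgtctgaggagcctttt
Papss2, second start (chr19:32619755-32620054, plus strand): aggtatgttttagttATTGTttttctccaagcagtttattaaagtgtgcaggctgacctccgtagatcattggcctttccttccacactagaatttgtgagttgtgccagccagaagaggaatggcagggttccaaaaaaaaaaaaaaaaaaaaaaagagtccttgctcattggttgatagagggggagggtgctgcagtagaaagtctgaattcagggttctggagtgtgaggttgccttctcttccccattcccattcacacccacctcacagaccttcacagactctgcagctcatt
Slc35d1 (chr4:103215127-103215426, minus strand): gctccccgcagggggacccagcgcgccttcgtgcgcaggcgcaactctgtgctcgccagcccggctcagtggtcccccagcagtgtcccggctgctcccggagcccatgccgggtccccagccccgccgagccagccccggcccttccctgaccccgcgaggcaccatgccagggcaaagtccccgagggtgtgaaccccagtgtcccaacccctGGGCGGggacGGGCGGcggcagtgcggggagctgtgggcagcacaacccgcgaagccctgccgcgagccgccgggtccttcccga
The first Papss2 start held 2 GC boxes and 1 RUNX core at 66.3% G and C, and the second held 1 SOX core at 44.3%. Slc35d1 held 2 GC boxes at 75.3%. Of the 2 not shown, Fam20b held 4 GC boxes and Extl1 held 0, and neither had a SOX or RUNX core. Over the 40 member starts, the SOX core was present in 6 (15%), the RUNX core in 2 (5%) and the GC box in 26 (65%), against 31.0%, 16.8% and 35.7% of 32851 mouse promoters of the same length. The TATA box TATAAA, searched on the forward strand only, was in 2 (5%), against 8.32%. The median G and C content was 66.3% for member starts and 52.7% for all promoters, and the motif shares were not adjusted for it. A match is a string of letters in this window and not evidence of binding.

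**Figure D2:**
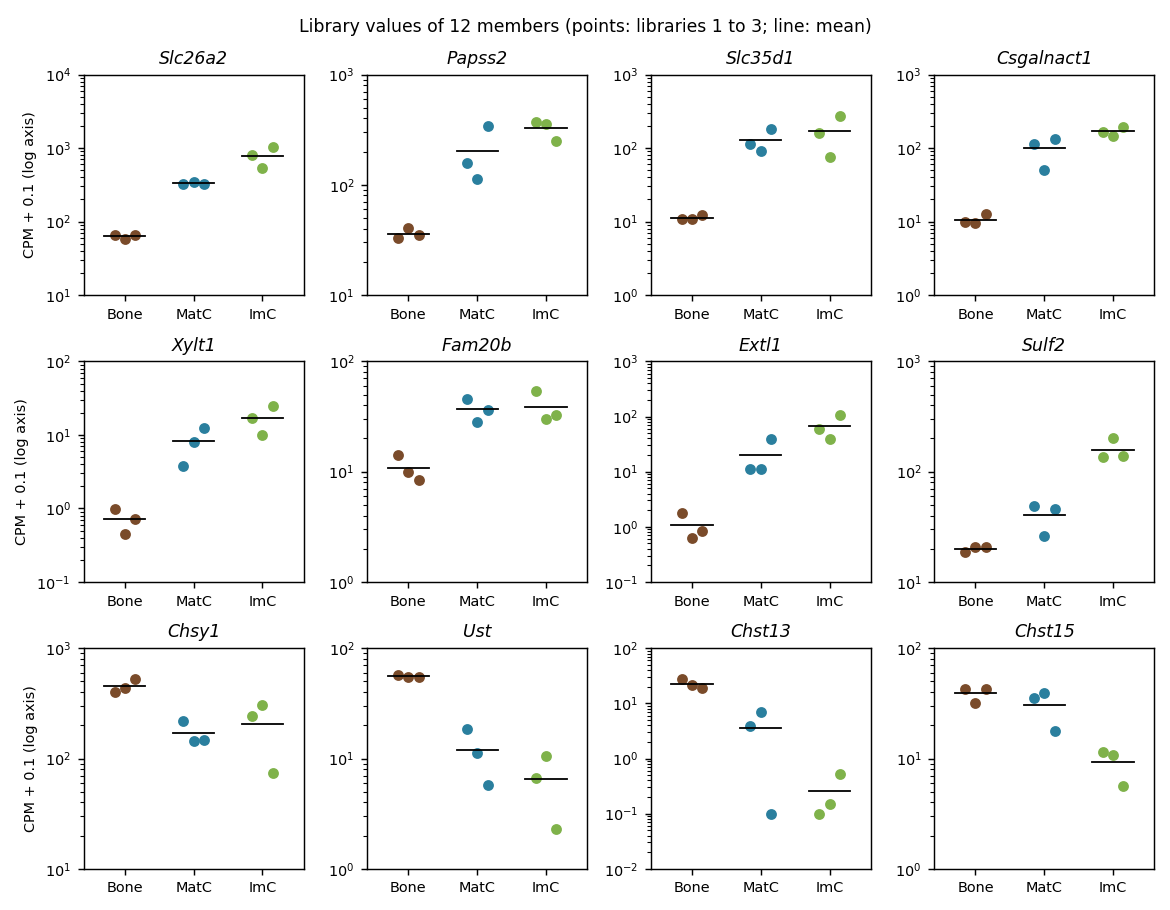
CPM + 0.1 on a log axis for 12 members in each library (points, libraries 1 to 3 from left to right) with the group mean (line), for Bone, MatC and ImC. Slc26a2, Papss2, Slc35d1, Csgalnact1, Xylt1, Fam20b, Extl1 and Sulf2 are lower in every Bone library than in any cartilage library, and Ust, Chsy1 and Chst13 are higher. The difference from MatC did not pass the test for Sulf2, Chst13 or Chsy1, nor that from ImC for Chsy1.

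Within the linker step, genes of the enzymes that start and phosphorylate the linker were lower in Bone. Of its 6 members, 3 were lower in Bone than in ImC (50%, against 16.8% of all tested genes) and 2 were lower in Bone than in MatC (33.3%, against 4.69%). Between MatC and ImC edgeR called 0 of the 6, with 0 at an unadjusted p under 0.05 and 0 called by DESeq2 or limma-voom. In the median, the log2 fold change was -0.95 for Bone against ImC and -1.01 for Bone against MatC. Xylt1 (chr7:117380979-117673580, plus strand) encodes a xylosyltransferase that places the first sugar on the core protein. Its levels were 0.866, 0.342 and 0.619 CPM in Bone, 3.71, 7.97 and 12.4 CPM in MatC, and 16.9, 9.93 and 24.4 CPM in ImC. Bone was under 1 CPM throughout and lay below every cartilage library. Xylt1 was 27.0-fold lower in Bone than in ImC (log2 fold change -4.76 ± 0.61, adjusted p = 0.00072) and 12.5-fold lower than in MatC (log2 fold change -3.64 ± 0.60, adjusted p = 0.00823), the second call being lost without Bone 2 (adjusted p = 0.0545).

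Xylt2 (chr11:94663851-94677515, minus strand), the second xylosyltransferase gene, had 10.4, 13.1 and 11.3 CPM in Bone, 17.1, 28.7 and 50.4 CPM in MatC, and 22.5, 20.3 and 48.3 CPM in ImC. It was 2.61-fold lower in Bone than in ImC (log2 fold change -1.38 ± 0.45, adjusted p = 0.0395), with no overlap. That call was lost without ImC 1, ImC 3, MatC 2 or any single Bone library (adjusted p = 0.0547 to 0.131). There was 0.0261 to 0.0829 read of Xylt1 per read of Xylt2 in Bone, 0.217 to 0.278 in MatC and 0.490 to 0.752 in ImC, and the ranges of the 3 groups were apart. Fam20b (chr1:156678532-156719086, minus strand) encodes the kinase that phosphorylates the linker xylose. It gave 14.0, 9.85 and 8.22 CPM in Bone, 45.5, 28.3 and 35.9 CPM in MatC, and 53.7, 30.2 and 32.6 CPM in ImC, with Bone below both cartilages and the cartilages overlapping. Fam20b was 3.63-fold lower in Bone than in ImC (log2 fold change -1.86 ± 0.34, adjusted p = 0.00386) and 3.41-fold lower than in MatC (log2 fold change -1.77 ± 0.34, adjusted p = 0.0169), the second call being lost without Bone 2 or Bone 3 (adjusted p = 0.0975 to 0.105).

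B3gat3, the glucuronyltransferase that completes the linker, was measured at 25.2, 40.8 and 31.0 CPM in Bone, 25.4, 35.6 and 82.3 CPM in MatC, and 22.1, 19.4 and 54.5 CPM in ImC. The groups overlapped, and for Bone against ImC the log2 fold change was 0.02 ± 0.50 (adjusted p = 0.984), with a sign that turned negative without ImC 1 (-0.15), ImC 2 (-0.23) or Bone 2 (-0.16). The galactosyltransferase genes were not called either. B4galt7 averaged 7.27 ± 0.310 CPM in Bone, 10.9 ± 4.90 CPM in MatC and 10.4 ± 3.37 CPM in ImC. B3galt6 averaged 7.78 ± 0.562 CPM in Bone, 4.61 ± 2.36 CPM in MatC and 6.997 ± 3.87 CPM in ImC.

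The enzymes that build the chondroitin chain differed from one another across the tissues. Of the 6, edgeR called Csgalnact1 alone, lower in Bone than in both cartilages, whereas DESeq2 called 2 of the 6 in each comparison with Bone and limma-voom 2 against ImC and 1 against MatC. The edgeR share was 16.7% in each comparison with Bone. Of all tested genes, 16.8% were lower in Bone than in ImC and 4.69% lower than in MatC. As a median over the 6, the log2 fold change was 0.03 for Bone against ImC, 0.21 for Bone against MatC and -0.35 for MatC against ImC. Csgalnact1 (chr8:68356781-68735146, minus strand) encodes the N-acetylgalactosaminyltransferase that starts the chondroitin chain on the linker. It stood at 9.80, 9.42 and 12.4 CPM in Bone, 112, 50.7 and 133 CPM in MatC, and 166, 147 and 191 CPM in ImC. The 3 groups did not overlap. It was 15.9-fold lower in Bone than in ImC (log2 fold change -3.99 ± 0.39, adjusted p = 0.000205) and 9.32-fold lower than in MatC (log2 fold change -3.22 ± 0.38, adjusted p = 0.00151), and it did not pass the test between MatC and ImC.

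Its paralog Csgalnact2 averaged 20.8 ± 2.02 CPM in Bone, 16.8 ± 6.53 CPM in MatC and 12.1 ± 2.40 CPM in ImC, with every Bone library above every ImC library and no call (log2 fold change 0.78 ± 0.33, adjusted p = 0.0955). Reads of Csgalnact1 per read of Csgalnact2 were 0.409 to 0.611 in Bone, 3.80 to 10.4 in MatC and 11.1 to 20.3 in ImC. Every Bone library thus had a lower ratio than every cartilage library. Per kilobase of exon, Csgalnact1 averaged 2.07 CPM per kb in Bone, 19.4 in MatC and 33.0 in ImC. Csgalnact2 averaged 3.83 CPM per kb in Bone, 3.09 in MatC and 2.23 in ImC.

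Chsy1 (chr7:66109515-66173798, plus strand), a chondroitin synthase that extends the chain, ran the other way. It gave 403, 439 and 522 CPM in Bone, 220.3, 145 and 147 CPM in MatC, and 241, 308 and 73.9 CPM in ImC. Every Bone library was above every cartilage library, but the difference did not pass the test for Bone against ImC (log2 fold change 1.13 ± 0.46, adjusted p = 0.0827) or for Bone against MatC (log2 fold change 1.41 ± 0.46, adjusted p = 0.101). ImC 3 was the lowest library at 73.9 CPM, and the comparison with MatC passed without it (log2 fold change 1.42, adjusted p = 0.0119), while that with ImC passed without ImC 2 (1.54, adjusted p = 0.0417) and was 0.73 without ImC 3, not passing (adjusted p = 0.096). DESeq2 called Chsy1 higher in Bone than in ImC (adjusted p = 0.0361) and in MatC (adjusted p = 0.0239), and limma-voom called it against ImC (adjusted p = 0.0425) and not against MatC (adjusted p = 0.108). Among the other chain genes, Chpf, a cofactor of the synthases, averaged 33.9 ± 1.48 CPM in Bone, 31.3 ± 8.604 CPM in MatC and 42.0 ± 4.97 CPM in ImC. Chpf2 averaged 4.74 ± 0.260 CPM in Bone, 3.74 ± 1.94 CPM in MatC and 7.43 ± 2.67 CPM in ImC, and 44.1% of its exon bases are shared with Smarcd3 on the opposite strand, which itself had 284 reads in all 9 libraries. Chsy3, a synthase, was low everywhere, at 0.473 ± 0.108 CPM in Bone, 1.82 ± 1.49 CPM in MatC and 0.348 ± 0.406 CPM in ImC.

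The chondroitin sulfotransferase genes that were called differed in direction, and 7 of the 9 calls were against ImC. Of the 9 genes, 8 were tested. Between Bone and ImC 3 were higher in Bone (Chst13, Chst15 and Ust, 37.5%, against 14.3% of all tested genes) and 2 were lower (Chst3 and Chst11, 25%, against 16.8%). Of these 5, Chst13 cleared the filter on low counts through Bone and Chst3 through ImC, the group where each was high. Between MatC and ImC, Chst13 and Chst15 were higher in MatC (25%, against 5.41% of all tested genes). Chst13 was tested in this comparison only because Bone carried it through the filter. Between Bone and MatC Ust was higher (12.5%, against 1.36%) and Chst12 lower (12.5%, against 4.69%) in Bone. The median log2 fold change of the 8 was 0.19 for Bone against ImC, -0.41 for Bone against MatC and 0.64 for MatC against ImC. Ust (chr10:8204756-8518825, minus strand) encodes the uronyl sulfotransferase, which sulfates the uronic acid of chondroitin and dermatan chains. Its levels were 57.3, 55.0 and 55.2 CPM in Bone, 18.4, 11.2 and 5.66 CPM in MatC, and 6.58, 10.5 and 2.21 CPM in ImC. Bone was tight and above every cartilage library, and the cartilages overlapped. Ust was 8.64-fold higher in Bone than in ImC (log2 fold change 3.11 ± 0.56, adjusted p = 0.00347) and 4.66-fold higher than in MatC (log2 fold change 2.22 ± 0.54, adjusted p = 0.04). The call against MatC was lost without ImC 1, MatC 2, MatC 3 or any single Bone library (adjusted p = 0.0601 to 0.134). Its promoter is shown as that of the member called higher in Bone than in both cartilages, with capitals as above.
Ust (chr10:8518776-8519075, minus strand): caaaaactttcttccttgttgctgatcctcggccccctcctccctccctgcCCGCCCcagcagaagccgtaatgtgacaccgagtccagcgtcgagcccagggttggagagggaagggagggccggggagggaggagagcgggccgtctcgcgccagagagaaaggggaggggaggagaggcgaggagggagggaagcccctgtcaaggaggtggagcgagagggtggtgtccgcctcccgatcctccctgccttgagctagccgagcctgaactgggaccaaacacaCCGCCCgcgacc
It held 2 GC boxes and neither the SOX nor the RUNX core, at 66.3% G and C.

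Chst13 (chr6:90308349-90325185, minus strand), a chondroitin 4-O-sulfotransferase, had the largest fitted fold difference of the members. It stood at 27.2, 21.7 and 18.9 CPM in Bone, 3.71, 6.77 and 0 CPM in MatC, and 0, 0.0496 and 0.427 CPM in ImC. The reads behind the low values were 49, 96 and 0 in MatC and 0, 1 and 6 in ImC. Every Bone library was above every cartilage library, and MatC and ImC overlapped, with no read in MatC 3. The fitted difference was 138-fold for Bone above ImC (log2 fold change 7.10 ± 1.20, adjusted p = 0.00254) and 22.8-fold for MatC above ImC (log2 fold change 4.51 ± 1.14, adjusted p = 0.0406), both resting on few reads in ImC. Without ImC 3 the log2 fold changes were 9.16 for Bone against ImC and 6.60 for MatC against ImC, and without MatC 2 the second was 3.73. The call between MatC and ImC was lost without ImC 1, ImC 2, MatC 1, MatC 2 or any single Bone library (adjusted p = 0.0752 to 0.113), with limma-voom (adjusted p = 0.103), with library size only (adjusted p = 0.0876) and with the replicate block (adjusted p = 0.0928). With only MatC and ImC fitted, Chst13 did not clear the filter on low counts and was not tested. It was above the cutoff in 2 MatC libraries and 0 ImC libraries. Against MatC, Bone did not pass (log2 fold change 2.59 ± 0.91, adjusted p = 0.123).

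Chst15 (chr7:132235780-132317228, minus strand) encodes the sulfotransferase that adds a second sulfate to a 4-sulfated N-acetylgalactosamine. It was measured at 43.0, 31.8 and 43.0 CPM in Bone, 35.3, 39.0 and 17.5 CPM in MatC, and 11.4, 10.6 and 5.56 CPM in ImC. Bone and MatC overlapped, and both lay above every ImC library. Chst15 was 4.27-fold higher in Bone than in ImC (log2 fold change 2.09 ± 0.39, adjusted p = 0.00389) and 3.35-fold higher in MatC than in ImC (log2 fold change 1.75 ± 0.38, adjusted p = 0.0255). The second call was lost without ImC 1, ImC 2, MatC 1, MatC 2, Bone 1 or Bone 3 (adjusted p = 0.0522 to 0.0729). Of the exon bases of Chst15, 17.9% are shared with the antisense gene Gm10584.

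Chst11 (chr10:82985498-83195900, plus strand), the chondroitin 4-O-sulfotransferase that the growth plate of mice needs, gave 31.2, 35.6 and 25.7 CPM in Bone, 64.0, 46.1 and 116 CPM in MatC, and 101, 67.2 and 62.6 CPM in ImC. Every Bone library was below every cartilage library, and the cartilages overlapped. It was 2.49-fold lower in Bone than in ImC (log2 fold change -1.32 ± 0.36, adjusted p = 0.0214), a call lost without ImC 1 or any single Bone library (adjusted p = 0.0609 to 0.0948), and it did not pass against MatC. Chst12 (chr5:140505550-140525724, plus strand), a further 4-O-sulfotransferase, had 5.63, 6.42 and 8.22 CPM in Bone, 19.6, 14.6 and 14.99 CPM in MatC, and 11.0, 9.53 and 12.7 CPM in ImC. The 3 groups did not overlap, and MatC was highest. Chst12 was 2.43-fold lower in Bone than in MatC (log2 fold change -1.28 ± 0.31, adjusted p = 0.0389), lost without ImC 1 or any single MatC or Bone library (adjusted p = 0.0568 to 0.183).

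Chst3 (chr10:60181532-60219260, minus strand), the chondroitin 6-O-sulfotransferase whose loss causes a spondyloepiphyseal dysplasia in humans, stood at 0.325, 0.0856 and 1.01 CPM in Bone, 0.303, 2.11 and 0.566 CPM in MatC, and 6.17, 20.6 and 3.77 CPM in ImC. Bone held 25 reads of it in all 3 libraries, and Bone and MatC overlapped below every ImC library. It was 20.4-fold lower in Bone than in ImC (log2 fold change -4.35 ± 1.02, adjusted p = 0.011). The log2 fold change was -3.31 without ImC 2, which had the highest level, and -5.47 without Bone 3, and the call was lost without Bone 1 (adjusted p = 0.0501). For MatC against ImC it did not pass (log2 fold change -3.26 ± 0.98, adjusted p = 0.071), with a log2 fold change of -2.24 without ImC 2 and -4.68 without MatC 2. That difference passed with DESeq2 (adjusted p = 0.00635) and with no filter on low counts (adjusted p = 0.0075), and not with limma-voom (adjusted p = 0.088). The other 6-O-sulfotransferase gene, Chst7, was under 1 CPM in every library. Chst14, which sulfates dermatan, averaged 11.5 ± 0.0761 CPM in Bone, 11.9 ± 7.60 CPM in MatC and 7.36 ± 3.15 CPM in ImC, and Dse, the epimerase that turns chondroitin into dermatan, averaged 17.5 ± 0.375 CPM in Bone, 29.3 ± 21.03 CPM in MatC and 20.9 ± 16.2 CPM in ImC. Neither was called.

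The counts of Ust, Chst11 and Chst15 were also set in ratios within a library, which do not depend on library scaling. These genes were picked for their calls and the ratios use the same counts, so they describe the calls and add no support. Reads of Ust per read of Chst11 were 1.54 to 2.14 in Bone, 0.0488 to 0.288 in MatC and 0.0353 to 0.156 in ImC. Reads of Chst11 per read of Chst15 were 0.599 to 1.12 in Bone, 1.18 to 6.61 in MatC and 6.35 to 11.3 in ImC. Bone thus held the most Ust per Chst11, while for Chst11 per Chst15 the Bone range lay below both cartilage ranges, which overlapped.

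**Figure D3:**
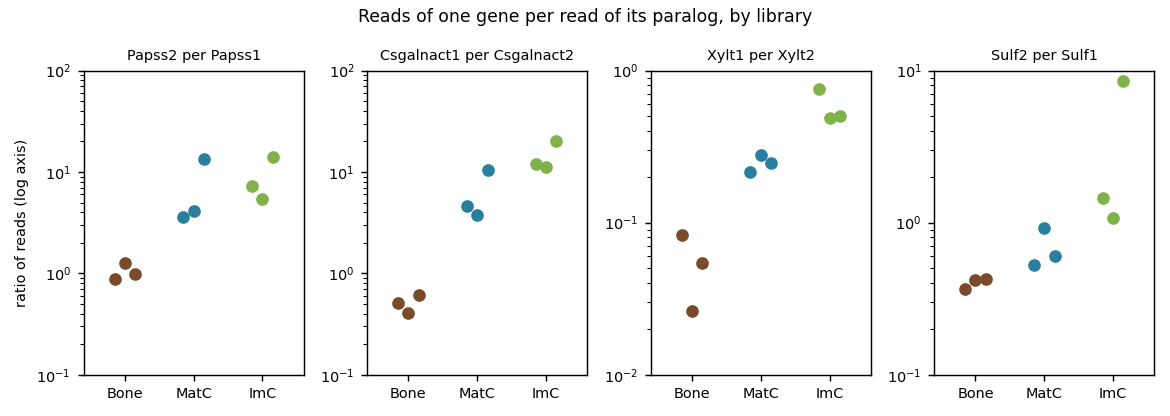
Reads of one gene per read of its paralog in each library, on a log axis, for Papss2 per Papss1, Csgalnact1 per Csgalnact2, Xylt1 per Xylt2 and Sulf2 per Sulf1 in Bone, MatC and ImC. Every Bone library lies below every cartilage library for all 4 pairs. The first gene of each pair was called lower in Bone than in ImC and the ratios use the same counts, so they add no support.

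The heparan chain genes were lower in Bone where they differed. Of 5 members, 3 (Ext1, Extl1 and Extl3) were lower in Bone than in ImC (60%, against 16.8% of all tested genes). Extl1 was also lower in Bone than in MatC (20%, against 4.69%). Between MatC and ImC edgeR called 0 of the 5, with 2 at an unadjusted p under 0.05, 2 called by DESeq2 and 1 by limma-voom. The 5 genes had a median log2 fold change of -1.14 for Bone against ImC, -0.07 for Bone against MatC and -0.29 for MatC against ImC. Ext1 (chr15:53064038-53346159, minus strand) encodes the heparan polymerase whose loss causes hereditary multiple exostoses in humans. Its levels were 24.04, 45.8 and 35.0 CPM in Bone, 30.1, 53.2 and 26.0 CPM in MatC, and 66.5, 92.1 and 80.8 CPM in ImC. Bone and MatC overlapped, and both lay below every ImC library. Ext1 was 2.29-fold lower in Bone than in ImC (log2 fold change -1.19 ± 0.35, adjusted p = 0.0259), lost without ImC 2, Bone 1 or Bone 3 (adjusted p = 0.0616 to 0.109). Its partner Ext2 averaged 29.6 ± 4.11 CPM in Bone, 26.7 ± 7.50 CPM in MatC and 28.9 ± 6.21 CPM in ImC and was called in no comparison.

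Extl1 (chr4:134356372-134383850, minus strand), an exostosin-like glycosyltransferase, had the most negative log2 fold change of the members. Its levels were 1.68, 0.514 and 0.732 CPM in Bone, 11.0, 10.9 and 39.0 CPM in MatC, and 60.3, 38.5 and 106 CPM in ImC. Bone lay below every cartilage library, and the lowest ImC library, ImC 2, was just under the highest MatC library, MatC 3. Extl1 was 67.7-fold lower in Bone than in ImC (log2 fold change -6.08 ± 0.74, adjusted p = 0.00056) and 19.7-fold lower than in MatC (log2 fold change -4.30 ± 0.70, adjusted p = 0.00771). Without Bone 1 these log2 fold changes were -6.71 and -4.94, without MatC 3 the second was -3.41, and without Bone 2 the second was lost (-4.01, adjusted p = 0.0532). Extl3 (chr14:65052060-65149855, minus strand), the N-acetylglucosaminyltransferase that commits the linker to heparan, gave 12.3, 16.9 and 17.0 CPM in Bone, 26.6, 35.8 and 20.9 CPM in MatC, and 29.8, 31.8 and 40.5 CPM in ImC. It was 2.21-fold lower in Bone than in ImC (log2 fold change -1.14 ± 0.29, adjusted p = 0.0153), with no overlap, and this was lost without any single Bone library (adjusted p = 0.0542 to 0.0769). Extl2, a further family member, averaged 23.1 ± 1.13 CPM in Bone, 14.9 ± 7.68 CPM in MatC and 15.5 ± 10.3 CPM in ImC and was not called.

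Among the 9 genes that modify and edit heparan sulfate, Sulf2 and Glce were lower in Bone than in ImC (22.2%, against 16.8% of all tested genes). Sulf2 was also lower in MatC than in ImC (11.1%, against 2.29%). Between Bone and MatC edgeR called 0 of the 9, with 1 at an unadjusted p under 0.05, 1 called by DESeq2 and 0 by limma-voom. The median log2 fold change was -0.42 for Bone against ImC, -0.13 for Bone against MatC and -0.60 for MatC against ImC. Sulf2 (chr2:166073089-166155663, minus strand) encodes an extracellular sulfatase that removes 6-O-sulfate from finished heparan chains. It was measured at 18.6, 20.5 and 20.7 CPM in Bone, 48.3, 25.9 and 45.8 CPM in MatC, and 137, 199.98 and 137 CPM in ImC. ImC was above every other library, and Bone was below every MatC library. Sulf2 was 7.93-fold lower in Bone than in ImC (log2 fold change -2.99 ± 0.32, adjusted p = 0.000257) and 3.96-fold lower in MatC than in ImC (log2 fold change -1.98 ± 0.31, adjusted p = 0.0066). Of its exon bases, 2.62% are shared with Ncoa3 on the opposite strand.

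Sulf1, the other sulfatase, had 50.5, 48.5 and 48.9 CPM in Bone, 91.6, 28.1 and 76.1 CPM in MatC, and 94.2, 186 and 16.1 CPM in ImC. The groups overlapped, and ImC ran from its lowest value in ImC 3 to its highest in ImC 2. For Bone against ImC it did not pass (log2 fold change -1.004 ± 0.69, adjusted p = 0.291), but it did without ImC 3 (-1.50, adjusted p = 0.0369), and without ImC 2 the log2 fold change was -0.16 (adjusted p = 0.875). Reads of Sulf2 per read of Sulf1 were 0.368 to 0.424 in Bone, 0.527 to 0.925 in MatC and 1.07 to 8.54 in ImC, and the 3 ranges were apart. The value of 8.54 was that of ImC 3, where Sulf1 was lowest. Glce (chr9:62057248-62122655, minus strand), the epimerase that makes iduronic acid in heparan, stood at 8.77, 9.25 and 11.1 CPM in Bone, 26.7, 12.1 and 7.07 CPM in MatC, and 29.2, 38.5 and 24.5 CPM in ImC. It was 3.16-fold lower in Bone than in ImC (log2 fold change -1.66 ± 0.44, adjusted p = 0.0183), lost without any single Bone library (adjusted p = 0.0572 to 0.0768). Bone and MatC overlapped.

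The remaining modification genes were not called by edgeR, and for Bone against ImC DESeq2 called 3 of the 9, the third being Hs6st2 (adjusted p = 0.0176). Ndst1, an N-deacetylase and N-sulfotransferase, averaged 14.2 ± 1.98 CPM in Bone, 11.8 ± 9.33 CPM in MatC and 14.2 ± 5.19 CPM in ImC. Its paralog Ndst2 averaged 9.01 ± 1.78 CPM in Bone, 9.79 ± 2.22 CPM in MatC and 12.1 ± 1.06 CPM in ImC. Hs2st1, which sulfates the uronic acid, averaged 22.7 ± 1.22 CPM in Bone, 16.4 ± 8.16 CPM in MatC and 12.7 ± 6.80 CPM in ImC. Every Bone library was above every ImC library for Hs2st1, and the groups overlapped for both Ndst genes. Hs6st2, a 6-O-sulfotransferase, averaged 12.5 ± 3.60 CPM in Bone, 28.1 ± 20.6 CPM in MatC and 51.0 ± 38.5 CPM in ImC and spread from 9.97 to 86.4 CPM within ImC. It missed the threshold for Bone against ImC (log2 fold change -2.02 ± 0.73, adjusted p = 0.0571) and passed it without ImC 3 (-2.51, adjusted p = 0.0106), MatC 1 (-2.01, adjusted p = 0.0473) or MatC 3 (-1.98, adjusted p = 0.047). It was -1.37 without ImC 1 (adjusted p = 0.203) and -1.57 with limma-voom (adjusted p = 0.132). Hs6st1 and the 3-O-sulfotransferase gene Hs3st1 were near the limit of detection, at 1.02 ± 0.372 CPM in Bone, 1.03 ± 0.70039 CPM in MatC and 0.376 ± 0.327 CPM in ImC for Hs6st1 and 0.752 ± 0.418 CPM in Bone, 0.101 ± 0.175 CPM in MatC and 0.248 ± 0.430 CPM in ImC for Hs3st1.

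**Figure D4:**
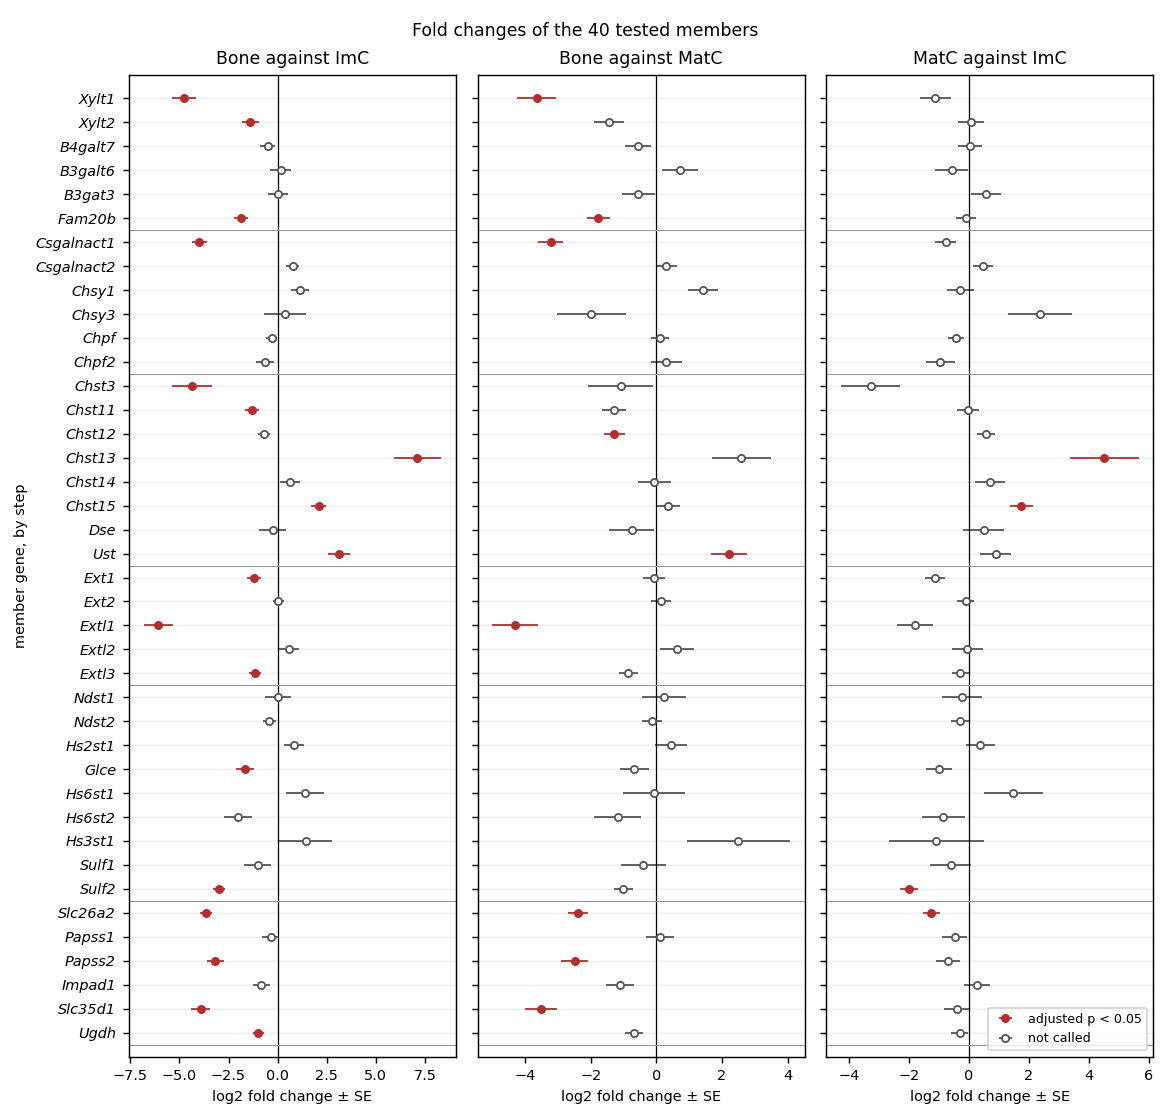
Log2 fold change ± SE of the 40 tested members for Bone against ImC, Bone against MatC and MatC against ImC, in the order of the synthesis steps separated by grey lines, with filled points for an adjusted p under 0.05 and open points for members not called. Filled points lie left of 0 except for Chst13, Chst15 and Ust, and the horizontal scales differ between the panels.

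Set side by side, the 14 tested genes of the chondroitin steps had 3 members higher (21.4%, against 14.3% of all tested genes) but 3 lower (21.4%, against 16.8%) in Bone than in ImC. Their median log2 fold change was 0.06. The 14 genes of the heparan steps had 5 lower (35.7%, against 16.8%), with a median of -0.71. For Bone against MatC the chondroitin genes had 1 higher (7.14%, against 1.36%) but 2 lower (14.3%, against 4.69%). The heparan genes had 1 lower (7.14%, against 4.69%). Whether the chondroitin and heparan genes differ as groups was not tested. Summed over the step, the supply genes came to 515 ± 32.8 CPM in Bone, 1377 ± 294 CPM in MatC and 2033 ± 261 CPM in ImC (SD, n = 3 each). The linker genes came to 70.3 ± 7.25 CPM in Bone, 140 ± 51.9 CPM in MatC and 136 ± 39.9 CPM in ImC.

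For the chondroitin chain the sum was 525 ± 62.8 CPM in Bone, 323 ± 68.9 CPM in MatC and 437 ± 94.0 CPM in ImC. Chsy1, which was not called, made up 86.6% of this sum in Bone, 52.9% in MatC and 47.4% in ImC. The sum thus mostly follows Chsy1 in Bone, while Csgalnact1 was lower there. For chondroitin sulfation it was 185 ± 6.91 CPM in Bone, 180 ± 33.1 CPM in MatC and 142 ± 41.04 CPM in ImC, with every Bone library above every ImC library and MatC overlapping both. Called genes of the step had opposite directions. The heparan chain summed to 104 ± 12.3 CPM in Bone, 126 ± 15.8 CPM in MatC and 226 ± 28.6 CPM in ImC, and heparan modification to 139 ± 8.01 CPM in Bone, 188 ± 71.5 CPM in MatC and 378 ± 158 CPM in ImC.

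**Figure D5:**
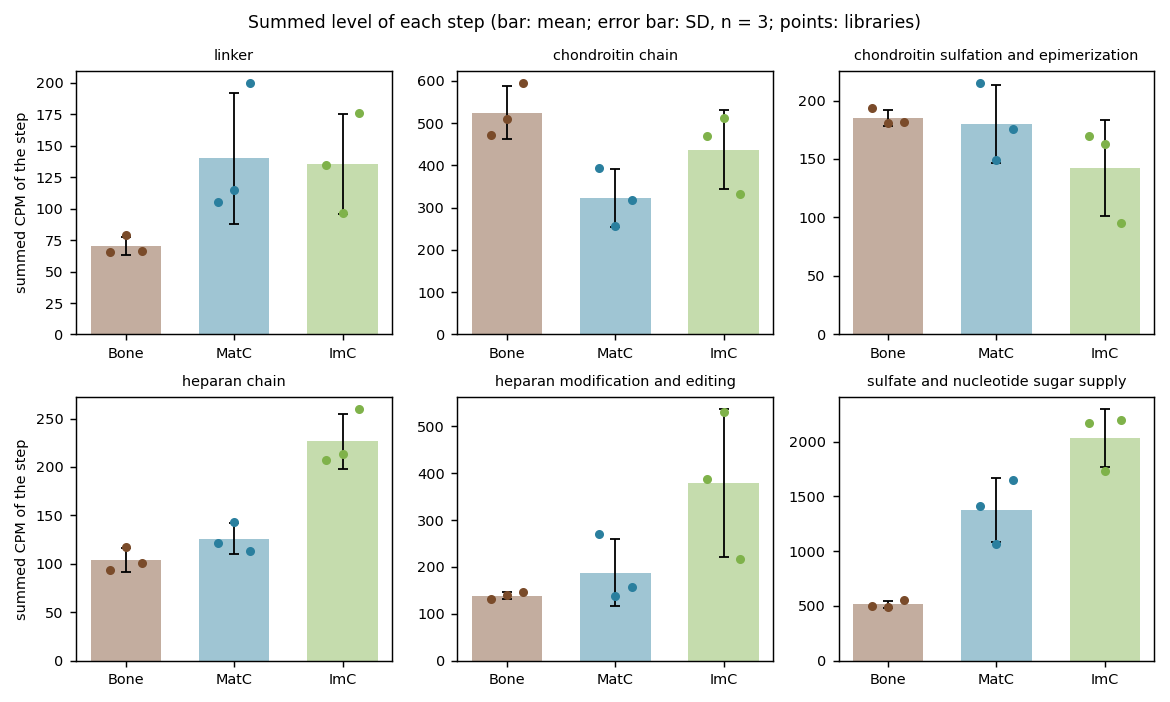
Summed CPM of the members of each of the 6 steps in Bone, MatC and ImC (bar, mean; error bar, SD, n = 3; points, libraries), with each vertical axis starting at 0. Supply is lowest in Bone, at 515 CPM, and highest in ImC, at 2033 CPM, while for chondroitin sulfation MatC overlaps both others and every Bone library is above every ImC library, with means of 185 CPM in Bone, 180 CPM in MatC and 142 CPM in ImC.

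Levels of different genes were ranked per kilobase of exon. In Bone, Chsy1 was the highest of the members, at 109 CPM per kb, followed by Ugdh at 31.4 and Impad1 at 24.2. In MatC the highest were Papss2 at 54.6, Impad1 at 51.9 and Ugdh at 50.5 CPM per kb. In ImC they were Papss2 at 87.5, Slc26a2 at 63.7 and Ugdh at 62.5 CPM per kb. Supply genes thus led in both cartilages, and a chain synthase led in Bone. These levels divide by the annotated exon length and take no account of the amplification.

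The place of MatC between the other tissues was described for the 18 members called between Bone and ImC, on a log2 scale where ImC is 0 and Bone is 1. MatC lay between the others for 17 of the 18, with a median position of 0.29 and a range from -0.05 for Xylt2 to 0.94 for Ext1, and for 12 of 18 it was nearer to ImC. The 18 were chosen because Bone and ImC differ, which by itself favours a place of MatC between them. Neither these shares nor the counts per MatC library below were computed over all genes called between Bone and ImC. Whether they are particular to these members was not tested. Slc35d1 at 0.10, Csgalnact1 at 0.19, Papss2 at 0.21 and Xylt1 at 0.23 were near ImC. Chst15 at 0.83, Chst3 at 0.75, Sulf2 at 0.66 and Chst13 at 0.64 were nearer to Bone. Within MatC the libraries were uneven. MatC 2, with the highest osteoblast marker sum of the group at 26640 CPM, was the lowest MatC library for 8 of the 15 members lower in Bone than in ImC, Csgalnact1, Papss2 and Slc35d1 among them, and the highest for 4, Chst3, Ext1, Extl3 and Slc26a2. MatC 3, with the lowest osteoblast sum at 1246 CPM, was the highest for 8 of the 15 and the lowest for 3. Of the 3 members higher in Bone than in ImC, MatC 2 was the highest MatC library for Chst13 and Chst15 and MatC 1 for Ust, and MatC 3 was the lowest for all 3. MatC 2 also had the lowest chondrocyte marker sum of the group, at 10558 CPM. Its sums of endothelial, osteoclast, macrophage and leukocyte, erythroid and skeletal muscle markers were the highest of the group. MatC 3 was the library with 82.3% mitochondrial reads. The part of osteoblast RNA, of RNA from other cells or of library quality in these values was not tested.

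Markers of other cells also moved with the tissues. Of 10 endothelial markers, 8 were higher in Bone than in ImC and 7 were higher in MatC than in ImC, with sums of 62.0 to 192 CPM in Bone, 20.9 to 318 CPM in MatC and 4.32 to 20.9 CPM in ImC. Between MatC and ImC, DESeq2 called 8 of the 10 and limma-voom 1. Of 8 osteoclast markers, 6 were higher in Bone than in ImC, with sums of 382 to 743 CPM in Bone, 24.3 to 351 CPM in MatC and 18.7 to 50.4 CPM in ImC. Of 10 macrophage and leukocyte markers, 8 were higher in Bone than in ImC, with sums of 51.8 to 138 CPM in Bone, 24.9 to 117 CPM in MatC and 11.8 to 32.0 CPM in ImC. Perichondrium, tendon and fibroblast markers, 3 of 9 tested higher in Bone than in ImC, summed to 377 to 846 CPM in Bone, 566 to 1500 CPM in MatC and 60.3 to 913 CPM in ImC. Their lowest library was ImC 3, which had 55.0% mitochondrial reads and the fewest genes with a read in ImC. ImC 3 was also the lowest ImC library for many members, among them Chsy1, Ust, Sulf1, Dse, Hs6st2, Chst3, Chst11, Chst15, Glce, Papss1, Papss2 and Impad1. For others, such as Slc26a2, Slc35d1, Extl1 and Xylt1, it was the highest. Erythroid markers, 2 of 8 higher in Bone than in ImC, summed to 6439 to 9214 CPM in Bone, 876 to 3501 CPM in MatC and 10.2 to 1425 CPM in ImC, and skeletal muscle markers, 1 of 7 tested higher, to 6.68 to 146 CPM in Bone, 27.8 to 445 CPM in MatC and 3.52 to 54.7 CPM in ImC. The part of these cells in the levels of Ust, Chst13, Chst15 and the other members was not tested.

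Other genes of the pathway were counted from 4 lists. Of 20 tested further synthesis and supply genes, 1 was higher and 4 were lower in Bone than in ImC, and 2 were higher but 1 lower in MatC than in ImC, with a median log2 fold change of -0.46 for Bone against ImC. For Bone against MatC edgeR called 0 of the 20, with 6 at an unadjusted p under 0.05, 2 called by DESeq2 and 1 by limma-voom. Chst1, a keratan sulfate sulfotransferase, averaged 4.93 ± 1.63 CPM in Bone, 19.2 ± 2.81 CPM in MatC and 2.36 ± 1.99 CPM in ImC, and was higher in MatC than in ImC (log2 fold change 3.03 ± 0.61, adjusted p = 0.0186). Of the 16 lysosomal genes that degrade the chains, 3 were higher but 2 lower in Bone than in ImC (median log2 fold change 0.01). In the other comparisons edgeR called 0 of the 16; for Bone against MatC 2 had an unadjusted p under 0.05, 2 were called by DESeq2 and 0 by limma-voom, and for MatC against ImC these counts were 4, 2 and 1. The iduronidase gene Idua was lower in Bone than in ImC (-1.89 ± 0.40, adjusted p = 0.00721), and the galactosidase gene Glb1 was higher (1.61 ± 0.44, adjusted p = 0.0201).

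Core proteins that carry the chains also differed. The shares over all tested genes are those given above for the 4 lists. Of 13 heparan sulfate core protein genes, 4 were higher but 6 lower in Bone than in ImC, 2 were lower in Bone than in MatC, and 2 were higher but 3 lower in MatC than in ImC, with a median log2 fold change of -0.79 for Bone against ImC. Gpc1, a glypican, averaged 316 ± 24.2 CPM in Bone, 207 ± 57.3 CPM in MatC and 49.5 ± 9.29 CPM in ImC, and was higher in Bone than in ImC (log2 fold change 2.67 ± 0.30, adjusted p = 0.000351). Gpc6, a second glypican, averaged 74.7 ± 5.56 CPM in Bone, 90.0 ± 35.2 CPM in MatC and 409 ± 199 CPM in ImC, and was lower in Bone than in ImC (-2.45 ± 0.41, adjusted p = 0.00253). Of 13 tested chondroitin and dermatan sulfate core protein genes, 4 were higher but 5 lower in Bone than in ImC, 2 higher but 4 lower in Bone than in MatC, and 3 higher in MatC than in ImC. Their median log2 fold change was -0.14 for Bone against ImC and 1.16 for Bone against MatC. Acan, the aggrecan gene, averaged 1.12 ± 0.70 CPM in Bone, 1039.6 ± 449 CPM in MatC and 1113 ± 241 CPM in ImC (Bone against ImC -9.93 ± 0.67, adjusted p = 4.54e-05).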

How the data were processed

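Per the labels' protocols, RNA was purified, DNase treated, amplified for 1 round and made into Illumina TruSeq libraries. The authors deposited a table of raw counts, whole reads per gene symbol with no entry that names no gene, which was used here; their second table of scaled values was not used. Trimmomatic 0.30, TopHat2, Bowtie2, HTSeq and edgeR are named, with the mm10 genome, per the submitters' processing notes; their roles and order are not given in the sources used here. Genes kept by filterByExpr (minimum count 10) numbered 14257 and held at least 99.8% of the reads of each library. All 9 libraries entered 1 edgeR quasi-likelihood fit (edgeR 4.0.16, limma 3.58.1, R 4.3.3) with TMM factors and a mean per group, and p-values were adjusted by Benjamini-Hochberg over all tested genes of a comparison. SE was taken as the size of the log2 fold change divided by the root of its F statistic. The procedure was also run on simulated counts, where genes had the same mean in all groups apart from a set that was changed. Those counts lack the differences in mitochondrial share between the groups, so they cannot show how the procedure handles them.

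Groups and replicate numbers came from the library titles. The labels do not say whether the numbers pair the libraries. The correlations of deviations from group means ran from -0.131 to 0.24 between libraries of the same number. Between libraries of different number they ran from -0.396 to 0.36. With 3 libraries per group these values cannot decide whether libraries were paired. Replicates were not duplicates of one another (chi-square per degree of freedom from 15.5). The members, steps, pathway lists and markers were chosen with earlier results of these data known. Members called in at least 1 comparison, and the 2 highest of each step by mean CPM, are given for every library; of other pathway genes at most 3 called ones per list were taken by smallest p, and some pathway and marker genes are not reported here by name. Coordinates and exon lengths are from GENCODE M21 (GRCm38, the assembly of mm10), which matched all 41 members. Reads from amplified RNA are not independent molecules, so low counts carry more than counting error.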

Additional observations from a re-analysis of the deposited data

How the results depend on the processing

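DESeq2 size factors and leaving out mitochondrially encoded genes kept every count of called members. For members lower in Bone than in ImC (15), the count was 8 with library size only and 8 to 17 when 1 library was left out, and for members higher (3) it was 3 to 5 when 1 library was left out. For members lower in Bone than in MatC (8), it was 1 with library size only and 3 to 11 with 1 library left out. For members higher in Bone than in MatC (1), it was 0 with library size only, 3 without the filter, 3 with DESeq2's Wald test (DESeq2 1.42.0), 2 when only the 2 groups were fitted, 3 without the third ImC and MatC libraries (chosen after seeing the data) and 0 to 2 with 1 library left out. For members higher in MatC than in ImC (2), it was 0 with library size only, 1 with limma-voom, 0 when only the 2 groups were fitted and 0 to 2 with 1 library left out. Chst13 was not tested when only the 2 groups were fitted. For members lower in MatC than in ImC (2), it was 1 with library size only (Extl1, not among the 2), 4 without the filter, 5 with DESeq2, 1 when only the 2 groups were fitted, 4 without the third ImC and MatC libraries and 1 to 3 with 1 library left out. A fit with 2 libraries left in a group takes their spread to be that of the other groups.

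With the replicate number as a block, 3 members were higher but 15 lower in Bone than in ImC, 1 higher but 7 lower in Bone than in MatC, and 1 higher but 2 lower in MatC than in ImC. The block lost Chst13 (adjusted p = 0.0928) and Slc26a2 (adjusted p = 0.063) and gained Ext1 (adjusted p = 0.0489) between MatC and ImC, and lost Chst12 (adjusted p = 0.0651) between Bone and MatC. The numbers are not stated to pair the libraries, so the block was not taken as a paired design.

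Among the 10 pairs of a member and a comparison that were not called and were recomputed, the sign turned for B3gat3 in Bone against ImC without ImC 1 (-0.15), ImC 2 (-0.23) or Bone 2 (-0.16) and for Papss1 in Bone against ImC with library size only (0.0098) or without ImC 2 (0.011); with 1 library left out, these log2 fold changes ran from -0.23 to 0.65 for B3gat3 and from -0.74 to 0.011 for Papss1. Over all tested genes, MatC against ImC gave 772 higher but 327 lower, against 191 and 167 with library size only, 157 and 48 when only the 2 groups were fitted and 1373 and 856 with DESeq2. For Bone against MatC the counts were 194 higher but 669 lower, against 119 and 178 with library size only, 445 and 1059 without the filter, and 676 and 1288 with DESeq2. For Bone against ImC they were 2039 higher but 2393 lower, against 1224 and 849 with library size only. Depth limits members of few reads, such as Chst13 with 0, 1 and 6 reads in ImC.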
